A study of Mus musculus with 13 samples.

Results

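The genes that break down the branched-chain amino acids leucine, isoleucine and valine (BCAA) were followed in interscapular brown adipose tissue (iBAT). The 10 members, taken by name, were the mitochondrial carrier Slc25a44, the aminotransferase Bcat2, the branched-chain ketoacid dehydrogenase (BCKDH) subunits Bckdha, Bckdhb and Dbt, the BCKDH kinase Bckdk, the BCKDH phosphatase Ppm1k, and the enzymes Ivd, Mccc1 and Hibch. All 10 were found among the 42416 gene identifiers of the files, and all 10 were among the 13360 genes tested, which had more than 1 CPM (counts per M counts of the library) in at least 5 libraries. Bulk RNA sequencing covered 13 libraries, 8 labelled iFAXLKO and 5 labelled WT. In both groups Axl carried loxP sites, tamoxifen was given every 3 weeks, and the mice were kept at room temperature on a high-fat diet (HFD). The iFAXLKO mice were Cre positive and the WT mice Cre negative, and the labels give no age. Per the methods of the study the inducible Cre is driven by Adipoq, so it acts in adipocytes and not in the other cells of the depot. Because the WT mice carried no Cre, the presence of Cre and the loss of Axl cannot be told apart in this design.

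Brown fat takes up BCAA and oxidises them in mitochondria. SLC25A44 carries them across the inner membrane, BCAT2 removes the amino group, and the BCKDH complex commits the resulting ketoacids to oxidation. BCKDK switches the complex off by phosphorylating its E1 subunit, and PPM1K, also called PP2Cm, switches it on again. Beyond BCKDH the paths part: IVD and the MCCC carboxylase act on the leucine carbon skeleton, and HIBCH acts on that of valine.

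Total counts ran from 22.44 to 32.6 M per library. The brown adipocyte marker Ucp1 lay between 4030 and 7894 CPM. The 8 white adipocyte markers together ranged from 55.3 to 124 CPM in iFAXLKO libraries and from 24.7 to 134 CPM in WT. Among them Tcf21 was at 0 in every library and Hoxc9 reached at most 0.11 CPM, while Retn lay between 14.1 and 58.9 CPM. The 16 skeletal muscle markers together ranged from 57.2 to 6001 CPM in the iFAXLKO libraries and from 69.6 to 4148 CPM in the WT libraries, and the 10 fibroblast markers from 547 to 1200 and from 394 to 702 CPM. WT replicate 2 stood apart from the other libraries. Relative to the mean of all libraries its log2 CPM fell by 0.19 for each doubling of transcript length, whereas the slopes of the other 12 libraries lay between -0.03 and 0.07, and its TMM factor of 0.90 was the lowest. Values of the members without this library are given below. In bulk tissue, fewer cells of a type and less RNA per cell cannot be told apart.

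Axl, the targeted gene (chromosome 7, 25757273 to 25788705, GRCm38), showed no decrease in libraries labelled iFAXLKO. The WT libraries had 28.4, 26.9, 26.3, 33.8 and 23.5 CPM in replicate order, and the iFAXLKO libraries ran from 26.5 to 43.9 CPM with a median of 31.7 CPM. The groups overlapped, and 6 of 8 iFAXLKO libraries lay above the WT mean. The log2 fold change was 0.25 (SE 0.13, edgeR adjusted p 0.699). Adding the fibroblast score, the mean log2 CPM of the fibroblast markers, to the model gave -0.21 (SE 0.10, edgeR adjusted p 1). The counts cover all exons of Axl and all cells of the depot. Each direction below rests on the labels, which this check did not bear out.

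No member passed the limit between the groups: 0 of 10 had an edgeR adjusted p under 0.05, against 0.127% of all genes tested (17 of 13360). At an unadjusted p under 0.05 there were 0 of 10 members by edgeR, 0 by DESeq2 and 1 by limma-voom. The shares of all genes tested were 7.38%, 8.3% and 11.4% in the same order. After adjustment neither DESeq2 nor limma-voom called a member, while they called 67 and 23 of all genes tested. The CPM ranges of the groups overlapped for all 10, while they did not overlap for 0.434% of all genes. Of the 10 values, 8 were below 0 and 2 above 0, with a median log2 fold change of -0.07 against -0.01 for all genes tested, of which 53.6% were below 0. Without WT replicate 2 the median of the members was -0.04 and that of all genes 0.01. The 95% intervals of the members together covered -0.45 to 0.39 on the log2 scale, so the size of difference left possible varied from gene to gene. Without WT replicate 2 the log2 fold changes were -0.04 for Slc25a44, 0.15 for Bcat2, 0.04 for Bckdha, -0.04 for Bckdhb, -0.20 for Dbt, -0.06 for Bckdk, -0.14 for Ppm1k, 0.10 for Ivd, -0.04 for Mccc1 and -0.03 for Hibch, with edgeR adjusted p-values from 0.39 to 0.925. The unadjusted edgeR p of Dbt was then 0.0372, the only one of the members under 0.05 in that fit. The share of all genes under 0.05 in that fit is not reported here, so 1 of 10 cannot be set beside a background.

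**Figure D1:**
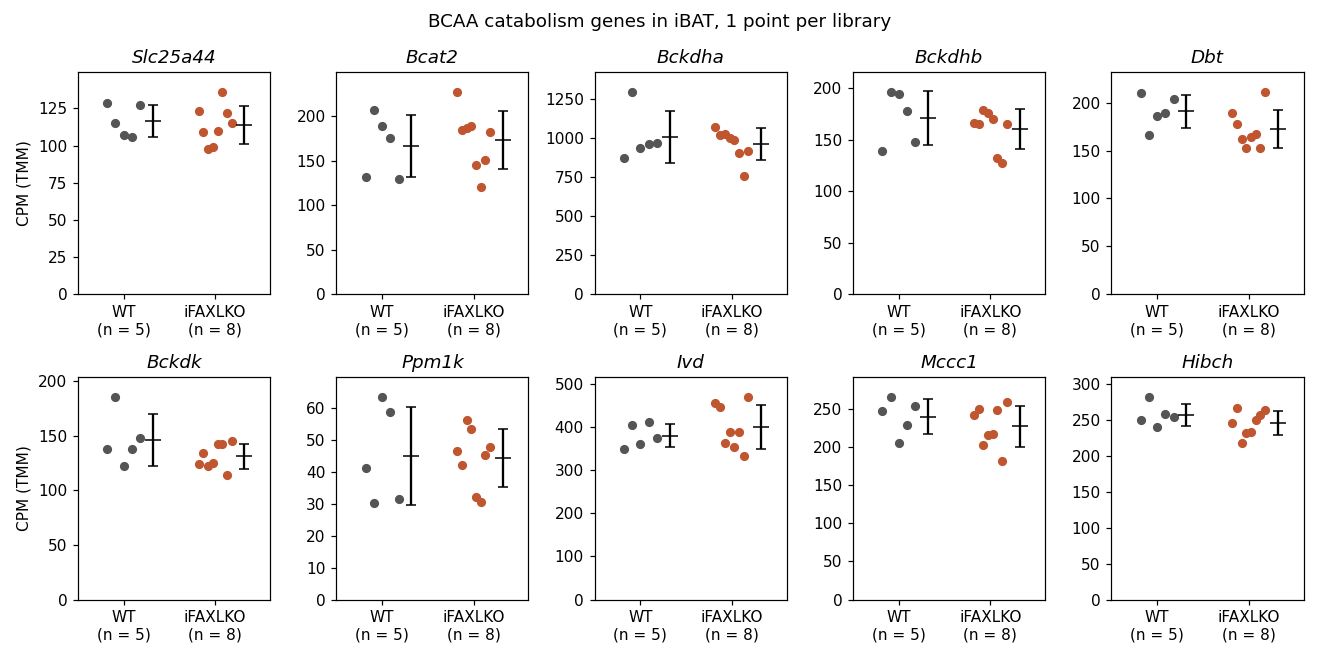
Level of each BCAA catabolism gene in CPM with TMM scaling (vertical axis, from 0), with 1 point per library for the 5 WT and 8 iFAXLKO libraries and the group mean and SD as a bar beside them. The groups overlapped for every gene, and the high WT point of Bckdha is replicate 2, at 1293 CPM.

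Transport and transamination come first in the pathway. Slc25a44, the inner-membrane BCAA carrier (chromosome 3, 88410498 to 88425139), had 129, 115, 107, 106 and 127 CPM in WT replicates 1 to 5. The iFAXLKO libraries ran from 97.9 to 136 CPM with a median of 113 CPM. Both the lowest and the highest library belonged to the iFAXLKO group, so the WT range lay wholly inside it. In edgeR the log2 fold change was -0.03 (SE 0.09, edgeR adjusted p 0.972), and the 95% interval of the fitted level ran from 85.7% to 111% of WT.

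Bcat2, the mitochondrial BCAA aminotransferase (chromosome 7, 45570153 to 45589711), had 132, 207, 189, 176 and 129 CPM in the WT libraries. The iFAXLKO libraries ran from 121 to 227 CPM with a median of 184 CPM. Low and high libraries occurred in both groups, with WT replicates 1 and 5 near the bottom beside iFAXLKO replicate 6. Between the groups the log2 fold change was 0.06 (SE 0.15, edgeR adjusted p 0.97). An antisense gene, 0610005C13Rik, shares 622 bp of exon with Bcat2. It had at most 0.475 CPM, and since the strand setting of the counting is not stated, reads of the pair cannot be told apart.

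The cytosolic aminotransferase Bcat1 is the counterpart of Bcat2. It had between 0.358 and 2.02 CPM over the 13 libraries, against 121 to 227 CPM for Bcat2. Per kb of exon the means over all libraries were 0.108 CPM for Bcat1 and 43.8 CPM for Bcat2.

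The BCKDH complex joins the E1 subunits alpha (Bckdha) and beta (Bckdhb), the transacylase E2 (Dbt) and the dehydrogenase E3 (Dld), which other complexes share. Bckdha (chromosome 7, 25629946 to 25658981) was the most abundant member. It had 872, 1293, 938, 962 and 968 CPM in the WT libraries, and from 756 to 1072 CPM with a median of 996 CPM in the iFAXLKO libraries. WT replicate 2 was above every other library. With WT replicate 2 the log2 fold change was -0.07 (SE 0.11, edgeR adjusted p 0.945), and it was 0.04 (SE 0.09, edgeR adjusted p 0.898) without it. Bckdha lies 98.3 kb from Axl on the same chromosome. Of its 1899 bp of exon, 1171 bp also belong to B3gnt8 on the opposite strand, which had 0.801 to 2.96 CPM. Since the strand setting is not stated, reads over the shared bases cannot be assigned, and the level of Bckdha, with every ratio or rank that uses it, depends on how they were counted.

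Bckdhb (chromosome 9, 83925145 to 84124240) had 139, 196, 194, 178 and 148 CPM in the WT libraries. The iFAXLKO libraries ran from 127 to 179 CPM with a median of 166 CPM. Each group held libraries near the low end, and the highest values were those of WT replicates 2 and 3. In edgeR the log2 fold change was -0.09 (SE 0.11, edgeR adjusted p 0.911).

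Dbt (chromosome 3, 116513070 to 116549981) had 210, 166, 186, 189 and 204 CPM in the WT libraries and from 153 to 211 CPM, with a median of 166 CPM, in the iFAXLKO libraries. Only iFAXLKO replicate 8 lay above the WT mean. Dbt differed by a log2 fold change of -0.15 (SE 0.09), at an unadjusted p of 0.115 and an adjusted p of 0.748 in edgeR, and the exact permutation p over all 1287 assignments of the labels was 0.105, 2-sided. The fitted level was 90.1% of WT with a 95% interval from 78.9% to 103%. With the fibroblast score in the model the log2 fold change of Dbt was 0.01 (SE 0.13). With scores made likewise from the skeletal muscle or brown adipocyte markers it was -0.17 (SE 0.09) and -0.16 (SE 0.11). The fibroblast markers themselves differed between the groups, with a median log2 fold change of 0.69, so fibroblast score and group are not separate in that fit. The part of fibroblast content in the value of Dbt was not tested further.

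Dld, which is outside the member list, had a log2 fold change of -0.14 (SE 0.08, edgeR adjusted p 0.717). The E1 alpha transcript exceeded the other BCKDH subunits per kb of exon in every library. The ratio of Bckdha to Bckdhb in CPM per kb was 5.72 ± 0.41 (SD, n = 8) in the iFAXLKO libraries and 5.65 ± 0.74 (SD, n = 5) in the WT libraries. The ratio of Bckdha to Dbt was 9.92 ± 1.28 (SD, n = 8) and 9.45 ± 2.47 (SD, n = 5).

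The kinase and the phosphatase set the phosphorylation of E1. Bckdk (chromosome 7, 127904082 to 127910221) had 138, 185, 122, 138 and 148 CPM in the WT libraries and from 114 to 145 CPM, with a median of 129 CPM, in the iFAXLKO libraries. All 8 iFAXLKO libraries lay below the WT mean, which WT replicate 2 raised. Between the groups the log2 fold change was -0.16 (SE 0.10, edgeR adjusted p 0.746) with an exact permutation p of 0.134, and leaving out 1 library moved it to between -0.20 and -0.06, the smaller size being that without WT replicate 2.

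Ppm1k (chromosome 6, 57506502 to 57535468) had 41.4, 30.3, 63.4, 58.9 and 31.4 CPM in the WT libraries and from 30.6 to 56.3 CPM, with a median of 45.9 CPM, in the iFAXLKO libraries. Its highest library was 2.09 times its lowest, the widest range among the members. The log2 fold change was -0.03 (SE 0.20, edgeR adjusted p 0.989), with the widest 95% interval of the members, from -0.45 to 0.39.

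The library numbers in the labels fall into a lower range with 4 iFAXLKO and 2 WT libraries and an upper range with 4 and 3. The labels do not say whether these are batches. The WT libraries of the lower range were replicates 1 and 2, and WT replicate 2 is the library that stood apart. It was the lowest of all libraries in Ppm1k and the highest in Bckdk, so the values of this range rest in part on it. Within the lower range the log2 fold change of Ppm1k was 0.47 (SE 0.18, edgeR adjusted p 0.521), and within the upper range it was -0.40 (SE 0.27, edgeR adjusted p 0.975). Bckdk had -0.36 (SE 0.15, edgeR adjusted p 0.532) in the lower range and -0.01 (SE 0.11, edgeR adjusted p 0.998) in the upper. The medians of the 10 members were -0.11 and -0.06. Whether the differences in the 2 ranges are themselves different was not tested.

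The ratio of Bckdk to Ppm1k within a library does not depend on how libraries are scaled. In WT replicate order the CPM ratio was 3.33, 6.11, 1.93, 2.34 and 4.73, and over the iFAXLKO libraries it ran from 2.16 to 4.64. Kinase transcripts thus exceeded phosphatase transcripts in all 13 libraries, per kb of exon by 3.15 to 9.95 times. The mean log2 ratio was 1.59 ± 0.41 (SD, n = 8) in the iFAXLKO libraries and 1.75 ± 0.69 (SD, n = 5) in the WT libraries. The difference was -0.17 (exact permutation p 0.588, where the smallest p the design allows is 0.000777). Without WT replicate 2 it was 0.05 (exact permutation p 0.861).

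Downstream of BCKDH, Ivd, the isovaleryl-CoA dehydrogenase of leucine breakdown (chromosome 2, 118861954 to 118882909), had 348, 404, 360, 410 and 374 CPM in the WT libraries. The iFAXLKO libraries ran from 333 to 468 CPM with a median of 387 CPM. Here the iFAXLKO range extended past the WT range at both ends. In edgeR the log2 fold change was 0.07 (SE 0.10, edgeR adjusted p 0.925).

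Mccc1, the biotin-carrying subunit of methylcrotonyl-CoA carboxylase (chromosome 3, 35959312 to 36000678), had 247, 265, 205, 229 and 253 CPM in the WT libraries and from 182 to 259 CPM, with a median of 230 CPM, in the iFAXLKO libraries. iFAXLKO replicate 7 was the lowest library and WT replicate 2 the highest. Between the groups the log2 fold change was -0.08 (SE 0.10, edgeR adjusted p 0.913). Its partner subunit Mccc2 had the same value, -0.08 (SE 0.07, edgeR adjusted p 0.881). Mccc1 shares 321 bp of exon or less with each of 3 genes on the opposite strand, of which those listed in the files had at most 1.68 CPM.

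Hibch, the 3-hydroxyisobutyryl-CoA hydrolase of valine breakdown (chromosome 1, 52844929 to 52920986), had 250, 281, 240, 258 and 253 CPM in the WT libraries and from 218 to 266 CPM, with a median of 248 CPM, in the iFAXLKO libraries. It was the steadiest member, its highest library being 1.29 times its lowest. The log2 fold change was -0.06 (SE 0.07, edgeR adjusted p 0.906), and the 95% interval of the fitted level, 86.2% to 106% of WT, was the narrowest of the members.

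**Figure D2:**
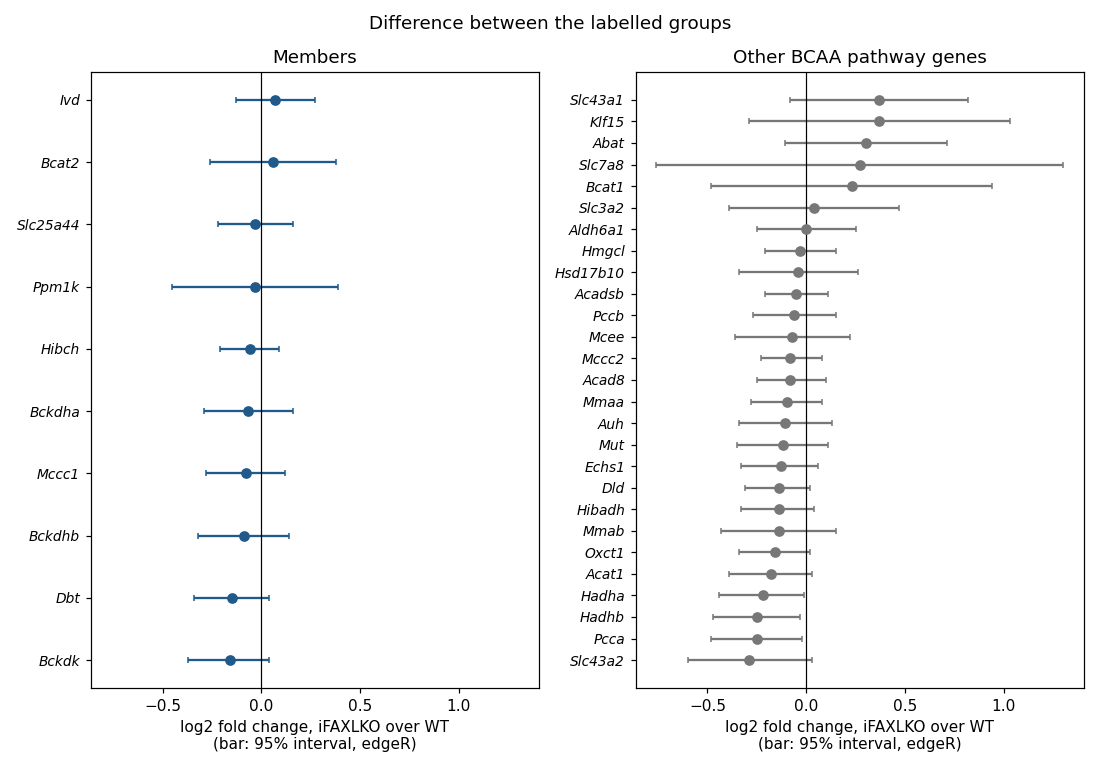
Log2 fold change of iFAXLKO over WT libraries (horizontal axis) with its 95% interval from edgeR for the 10 members (left) and the 27 other BCAA pathway genes tested (right), ordered by value. The interval of every member includes 0, and those of Hadha, Hadhb and Pcca do not before adjustment, which did not hold without WT replicate 2.

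Of the 28 other BCAA pathway genes, 27 were tested and 0 had an edgeR adjusted p under 0.05, as with DESeq2 and limma-voom. At an unadjusted p under 0.05 there were 3 by edgeR, 4 by DESeq2 and 2 by limma-voom, where 7.38%, 8.3% and 11.4% of all genes passed, so the counts were near the background. By edgeR 20 of 27 values were below 0, with a median of -0.08, which was -0.03 without WT replicate 2.

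The 3 genes at an unadjusted p under 0.05 were Hadha and Hadhb, the subunits of the mitochondrial trifunctional protein of fatty acid oxidation, and Pcca, the alpha subunit of propionyl-CoA carboxylase. Hadha, the most abundant of these 28 genes per kb of exon, had 3046, 3507, 2558, 2503 and 3262 CPM in the WT libraries and from 2270 to 2898 CPM in the iFAXLKO libraries. Its log2 fold change was -0.22 (SE 0.10, p 0.0432, edgeR adjusted p 0.652). Hadhb had -0.25 (SE 0.10, p 0.0287, edgeR adjusted p 0.619). Pcca had 398, 451, 351, 353 and 449 CPM in the WT libraries and from 249 to 387 CPM in the iFAXLKO libraries, a log2 fold change of -0.25 (SE 0.11, p 0.032, edgeR adjusted p 0.625). For each of these genes 0 of 8 iFAXLKO libraries lay above the WT mean, and the ranges overlapped. Without WT replicate 2 the log2 fold changes were -0.16 for Hadha, -0.19 for Hadhb and -0.21 for Pcca (unadjusted edgeR p 0.114, 0.0708 and 0.0743), so that 0 of these 3 genes were then under 0.05. By range of library number, lower then upper, the values were -0.40 and -0.09 for Hadha, -0.46 and -0.08 for Hadhb, and -0.32 and -0.21 for Pcca. The 2 WT libraries of the lower range include WT replicate 2, which was the highest library for each of these genes.

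The highest value of the list was that of Klf15, a transcription factor known to act on BCAA breakdown, and the lowest that of Slc43a2, a plasma-membrane carrier of large neutral amino acids. Klf15 had 44.8, 38.0, 50.9, 54.2 and 36.4 CPM in the WT libraries and from 26.7 to 103 CPM, with a median of 54.6 CPM, in the iFAXLKO libraries, a log2 fold change of 0.37 (SE 0.31, edgeR adjusted p 0.855). It was 0.21 without iFAXLKO replicate 7, 0.10 with limma-voom and 0.13 with the replicate number as a block. Other settings raised it, to 0.49 without iFAXLKO replicate 4, 0.53 in the upper range of library numbers and 0.63 with the brown adipocyte score in the model. The iFAXLKO libraries spread over a range that held all WT values. Slc43a2 had a log2 fold change of -0.29 (SE 0.15, edgeR adjusted p 0.707), or -0.35 without WT replicate 2 (SE 0.16, unadjusted p 0.0482, edgeR adjusted p 0.416). Of the heterodimeric carrier LAT1, the light chain Slc7a5 did not pass the filter, with 0.306 to 1.12 CPM, and the heavy chain Slc3a2, which serves other light chains too, had 40.3 to 80.9 CPM and a log2 fold change of 0.04 (SE 0.20, edgeR adjusted p 0.987).

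Mitochondrial fatty acid oxidation, a neighbouring pathway, gave values of a similar size. Of its 15 genes, led in abundance by Acadvl, 14 were below 0 with a median log2 fold change of -0.11. Of them 0 were called by edgeR or limma-voom and 1 by DESeq2, with 2 at an unadjusted p under 0.05 by edgeR, against 7.38% of all genes tested. The median was -0.05 without WT replicate 2.

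**Figure D3:**
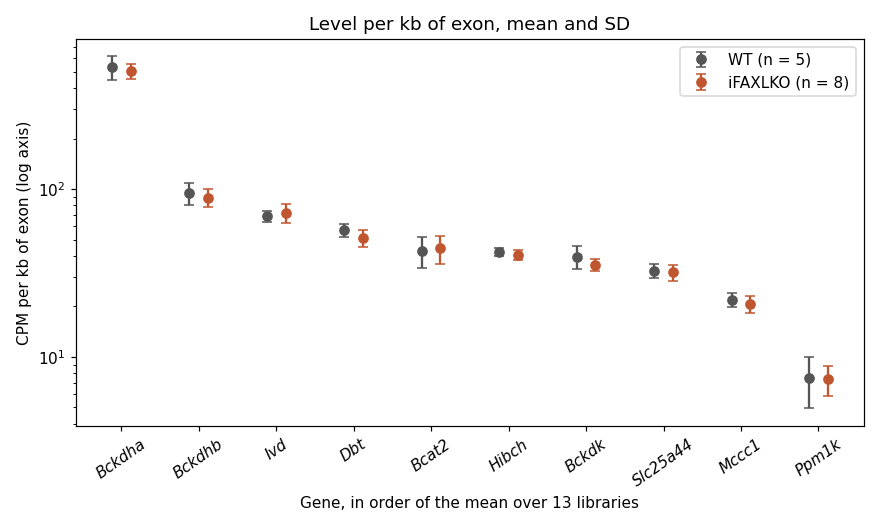
Level of each member in CPM per kb of exon (vertical axis, log scale), as the mean and SD of 5 WT and 8 iFAXLKO libraries, in order of the mean over all 13. Bckdha stands at 515 and Ppm1k at 7.41 CPM per kb.

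Levels were compared between genes per kb of exon. Over the 13 libraries the mean was 515 CPM per kb for Bckdha, 91.0 for Bckdhb, 71.1 for Ivd, 53.6 for Dbt, 43.8 for Bcat2, 41.2 for Hibch, 37.0 for Bckdk, 32.2 for Slc25a44, 21.2 for Mccc1 and 7.41 for Ppm1k. Each of the first 3 genes was above the next in 13 of 13 libraries, as was Slc25a44 above Mccc1 and Mccc1 above Ppm1k. The middle of the order was less separated, since Dbt exceeded Bcat2 in 10 libraries, Bcat2 exceeded Hibch in 8, and both Hibch over Bckdk and Bckdk over Slc25a44 held in 11. The order rests on the transcript length used. With the longest transcript in place of all exons, 5 of 10 genes kept their rank and Bcat2 moved from the fifth to the fourth place.

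The members differed in how much libraries of the same group varied. The SD of log2 CPM within groups was 0.39 for Ppm1k and 0.29 for Bcat2, larger than for 86.7% and 73.3% of all genes tested. For the other 8 members it ran from 0.10 for Hibch to 0.20 for Bckdhb, below the median gene at 0.21. Hibch varied more than only 5.01% of genes.

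**Figure D4:**
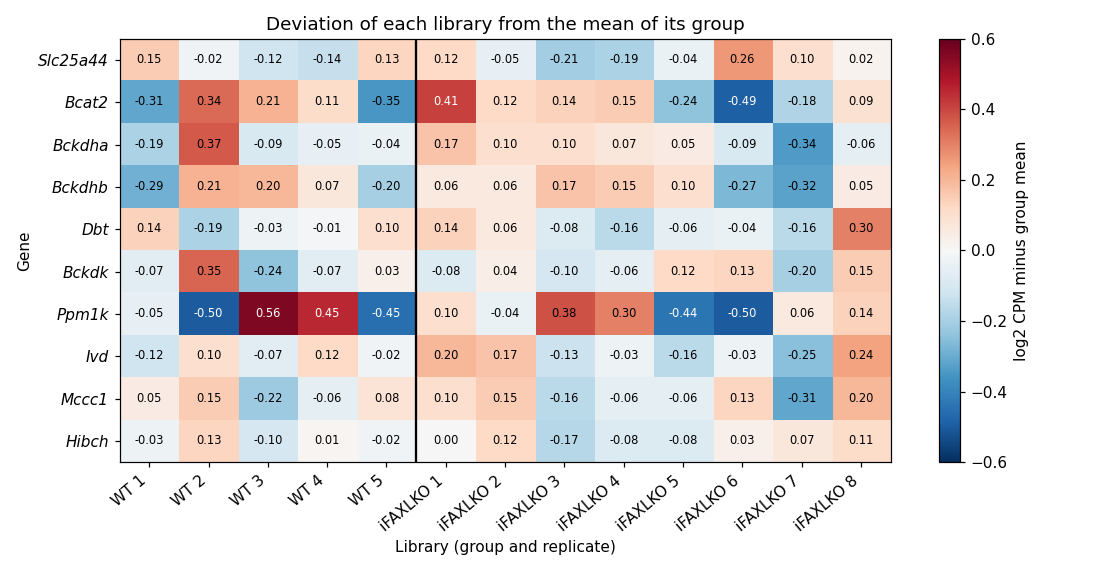
Deviation of log2 CPM from the mean of its own group for each member (rows) in each library (columns, WT left of the line), coloured from -0.6 to 0.6. Ppm1k stands between -0.50 and -0.44 in WT replicates 2 and 5 and iFAXLKO replicates 5 and 6, and Bckdhb between -0.32 and -0.20 in WT replicates 1 and 5 and iFAXLKO replicates 6 and 7.

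For 2 members the largest gap between neighbouring deviations passed the limit used here to call separate sets of libraries. The gap was 0.36 of the range for Ppm1k and 0.47 for Bckdhb, against at most 0.30, for Bcat2, among the other members. Ppm1k was thus close to the limit, and how often such gaps occur among all genes was not tested. Ppm1k lay between -0.50 and -0.44 in 4 libraries and between -0.05 and 0.56 in the other 9. Bckdhb lay between -0.32 and -0.20 in 4 libraries and between 0.05 and 0.21 in the other 9. WT replicate 5 and iFAXLKO replicate 6 were in the low set of both genes, and each low set held libraries of both groups.

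Relations between members across the libraries were computed on these deviations, after the values had been seen. For the 28 pairs without Ppm1k or Bckdhb, r ran from -0.59 to 0.75 with a median of 0.40, and 22 of 28 were above 0. By permutation within the groups (100000 draws, 2-sided), 4 pairs had an unadjusted p of Pearson's r under 0.05, and after adjustment over the 28 pairs 0 passed by Pearson's r and 1 by Spearman's rho. That pair was Bckdk and Mccc1, with r = 0.75 (permutation p 0.0027, adjusted p 0.075) and rho = 0.84 (permutation p 0.0017, adjusted p 0.048). Ppm1k and Bckdhb had been left out of the 28 pairs on their values. Their 18 comparisons, which hold the pair of these 2 genes once in the set of each, were adjusted apart. No adjustment over all pairs was made, so this pass rests on the choice of pairs. Leaving out the 2 libraries most distant from the median of Bckdk gave r = 0.76. Without WT replicate 2 it was 0.80, with the trend over GC content and transcript length removed it was 0.80, and with both changes it was 0.63. It was 0.49 in the lower range of library numbers and 0.93 in the upper. The other strong pair, Ivd and Mccc1, which encode consecutive steps of leucine breakdown, had r = 0.74 (permutation p 0.0091, adjusted p 0.13) and rho = 0.72 (permutation p 0.014, adjusted p 0.19), with r of 0.96 and 0.77 in these ranges and 0.66 without the 2 libraries most distant in Ivd.

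For Bckdhb and Ppm1k the relation to the other members was computed only within the larger set of 9 libraries of the gene in question. The pair of these 2 genes was thus computed in both sets. Of these 18 comparisons 0 passed adjustment, with 3 at an unadjusted exact permutation p of r under 0.05. These were Ppm1k and Slc25a44 (r = -0.81, exact permutation p 0.019), Bckdhb and Dbt (r = -0.70, exact permutation p 0.03), and Ppm1k and Bckdhb in the set of Ppm1k (r = 0.77, exact permutation p 0.039). Each of the 3 had an adjusted p of 0.2. For Ppm1k and Bckdhb, r was 0.55 without the 2 most distant libraries. In the set of Bckdhb the same pair had r = -0.06 and rho = 0.13 (exact permutation p of r 0.91), so the 2 sets did not give the same relation. Bckdhb and Slc25a44 had r = -0.45 and rho = -0.45 (exact permutation p 0.21 and 0.25, adjusted p 0.37 and 0.4), and r was -0.58 without the 2 most distant libraries. Ppm1k and Bckdk had r = -0.33 and rho = -0.42 (exact permutation p 0.39 and 0.29, adjusted p 0.55 and 0.4), and r was -0.10 without the 2 most distant. Bckdhb lay at least 0.05 above its group mean in all 8 libraries in which Slc25a44 was lowest, and 4 of the 5 libraries highest in Slc25a44 formed its low set. Since this pattern is that of 2 sets of libraries, no r over all 13 is given for it.

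**Figure D5:**
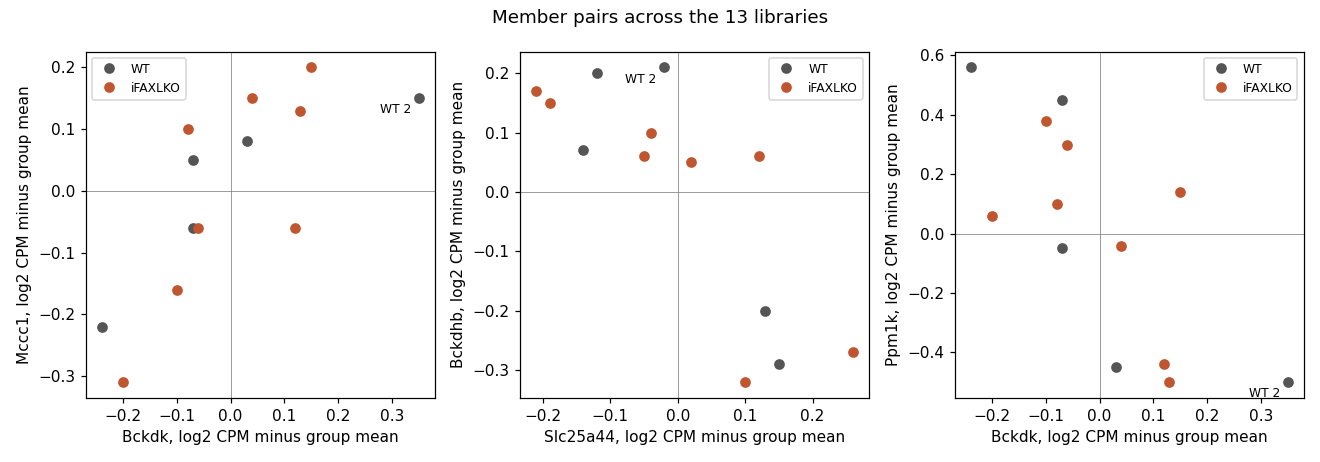
Deviations of log2 CPM from the group mean for Bckdk and Mccc1 (left), Slc25a44 and Bckdhb (middle), and Bckdk and Ppm1k (right), 1 point per library, WT in grey and iFAXLKO in orange. Bckdk and Mccc1 mostly deviated in the same direction, while the libraries fell into 2 sets along the vertical axis of the other plots.

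The genes most like the members as a whole were sought only among genes outside the pathway lists. Over the 13 libraries, the deviations of the mean of the members were closest to those of Slc2a8 (r = 0.91), Gcdh (0.90), Gstm7 (0.90), Pld6 (0.89) and Adhfe1 (0.88). Gcdh encodes glutaryl-CoA dehydrogenase of lysine and tryptophan breakdown and had 101 ± 9.64 CPM in the iFAXLKO libraries (SD, n = 8) against 98.9 ± 12.5 CPM in WT (SD, n = 5). For Slc25a44 alone the closest were Hk2 (0.93), which encodes hexokinase 2, Ywhag (0.93) and Gspt1 (0.92). These are the highest of all genes tested outside both lists, chosen for their r, so the values are a description.

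Promoter windows are shown for Bckdk and Mccc1, the pair that passed adjustment by rho among the 28 pairs only, and for Ppm1k, the most variable member. They are the 250 bases before the RefSeq transcript start on GRCm38.p6, read 5′ to 3′ on the strand of the gene, and capitals mark each match to CCAAT or GGGCGG on either strand.
Bckdk, chr7:127903823-127904072, plus strand: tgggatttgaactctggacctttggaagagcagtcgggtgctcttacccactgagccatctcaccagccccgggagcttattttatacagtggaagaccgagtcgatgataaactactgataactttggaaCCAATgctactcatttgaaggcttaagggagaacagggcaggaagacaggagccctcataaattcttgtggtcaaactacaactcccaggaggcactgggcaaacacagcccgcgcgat
Mccc1, chr3:36000679-36000928, minus strand: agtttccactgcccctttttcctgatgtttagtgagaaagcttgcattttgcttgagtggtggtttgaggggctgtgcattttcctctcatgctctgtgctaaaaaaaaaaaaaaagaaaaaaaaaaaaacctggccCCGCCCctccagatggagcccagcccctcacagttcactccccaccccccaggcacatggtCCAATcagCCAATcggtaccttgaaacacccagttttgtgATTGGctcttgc
Ppm1k, chr6:57535488-57535737, minus strand: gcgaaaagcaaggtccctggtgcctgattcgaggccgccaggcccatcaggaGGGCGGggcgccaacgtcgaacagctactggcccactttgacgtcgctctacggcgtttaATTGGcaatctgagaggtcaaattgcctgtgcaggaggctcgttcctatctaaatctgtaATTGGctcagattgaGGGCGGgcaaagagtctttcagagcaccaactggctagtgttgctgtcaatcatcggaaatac
The Bckdk window held 1 match to CCAAT and 0 to GGGCGG, the Mccc1 window 3 and 1, and the Ppm1k window 2 and 2. Matches to CCAAT and to GGGCGG were found in 33.8% and 32.7% of all 32851 windows of this length. Windows were found for 8 of the 10 members, with 10 windows in all, of which 5 held CCAAT and 4 held GGGCGG. Slc25a44 and Dbt had no entry. None of the 10 windows held CACGTG, TCAAGGTCA or GCGCATGCG on either strand, against 6.02%, 0.387% and 1.45% of all windows.

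The spread between libraries was then set beside other cell types of the depot. A score of this kind, from a list of markers, was added to the group in the edgeR model, and its slope gives the log2 change of a gene per log2 unit of the score. On the skeletal muscle score 0 of 10 members were called, against 1.54% of all genes tested, and the slopes lay between -0.02 (SE 0.04) for Ppm1k and 0.01 (SE 0.03) for Bcat2. Of the markers that make up each score, which are tied to it by construction, 16 of 16 were called on the muscle score, 2 of 10 on the fibroblast score and 0 of 9 on the brown adipocyte score, so a count of 0 members on the latter scores carries little information. The skeletal muscle score spanned from -6.48 to 3.06 over the libraries.

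On the fibroblast score 0 of 10 members were called, against 0.105% of all genes. The slopes ran from -0.27 (SE 0.16) for Dbt to 0.22 (SE 0.38) for Ppm1k. All 10 fibroblast markers, led by Col3a1, had a log2 fold change above 0 between the groups, with a median of 0.69. By edgeR 9 had an unadjusted p under 0.05, against 7.38% of all genes tested, though 0 were called by edgeR or limma-voom and 2 by DESeq2. On the brown adipocyte score 0 of 10 members were called, against 0% of all genes in edgeR, where 1615 genes had an unadjusted p under 0.05 and DESeq2 called 60. The 3 largest slopes were 0.57 (SE 0.44) for Bcat2, 0.52 (SE 0.31) for Bckdhb and 0.48 (SE 0.30) for Bckdha. At an unadjusted p under 0.05 edgeR gave 0 of 10 members on each of the 3 scores. Of the 13360 genes tested, 618, 772 and 1615 passed this limit by edgeR on the muscle, fibroblast and brown adipocyte scores. DESeq2 gave 0 members on each score and limma-voom 0, 1 and 0, and their shares of all genes at this limit are not reported here. After adjustment neither called a member, while DESeq2 called 235, 99 and 60 genes and limma-voom 259, 101 and 0.

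The other cell lists moved between the groups as follows. The 9 brown adipocyte markers, led by Ucp1, were all below 0, with a median log2 fold change of -0.16, which was -0.10 without WT replicate 2. The 7 macrophage markers, led by Lyz2, were all above 0 with a median of 0.39, the 5 white adipocyte markers tested, led by Retn, had 0.18, or 0.28 without WT replicate 2, the 7 endothelial markers, led by Cdh5, had 0.21, or 0.09 without WT replicate 2, and the 16 skeletal muscle markers, led by Acta1, had -0.26, or 0.00 without WT replicate 2. By edgeR, DESeq2 or limma-voom 0 genes of these lists were called. At an unadjusted p under 0.05 in edgeR there were 2, 6, 1, 1 and 0, against 7.38% of all genes tested. Summed over the list, the brown adipocyte markers ranged from 8126 to 12251 CPM in the iFAXLKO libraries and from 10153 to 15154 CPM in WT. The macrophage markers ranged from 87.7 to 167 and from 73.4 to 108 CPM, the white adipocyte markers from 55.3 to 124 and from 24.7 to 134 CPM, and the endothelial markers from 798 to 1208 and from 682 to 955 CPM. The part of these cell types in the values of the members was not tested beyond the covariate fits. The 5 liver and kidney markers summed to at most 0.464 CPM.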

How the data were processed

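Counts were deposited as whole numbers of reads per Ensembl gene, 1 file per library, and the authors did not normalise them. The submitters' processing notes name bcl2fastq 2.20, fastp 0.20.0, STAR 2.7.4a, DESeq2 and GRCm38.p6, while the methods of the study name other trimming and mapping tools for GRCm38. The labels give polyadenylated RNA and the methods describe depletion of ribosomal RNA. The counting tool and strand setting are not given in the sources used here. GENCODE M21 gave symbols, positions and exon lengths.

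Genes over 1 CPM in at least 5 libraries were tested with edgeR 4.0.16 (R 4.3.3, quasi-likelihood F test, robust, TMM, 2-sided, Benjamini-Hochberg over the 13360 genes, limit 0.05). The SE was derived from the log2 fold change and its F value. CPM use TMM factors, and log2 CPM a prior count of 2. Single values were compared by an exact permutation test over 1287 splits. Alternatives were DESeq2 1.42.0, limma-voom 3.58.1 with sample weights, other scalings and filters, covariates, a replicate block and leaving out each library. Values within the ranges of library numbers, the removal of the GC and length trend, the brown adipocyte covariate and the relations between members were chosen after seeing the data. The scripts were tested on simulated data.

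The named genes were all members, Axl, and of the pathway list those with an unadjusted p under 0.05, the highest and lowest log2 fold change, the most abundant per kb, Bcat1, Slc7a5, Slc3a2 and Klf15, with the 5 genes most like the mean of the members and the 3 most like Slc25a44, and the most abundant gene of other lists. Dld, Mccc2, Hoxc9 and Tcf21 were added outside this rule. Not every gene named by this rule is reported here. Members and lists were chosen with earlier results of these data known. The lowest chi-square per degree of freedom between libraries of a group was 16.65, so each was counted as 1 replicate. The labels do not say that each library is a separate mouse, so p-values measure the spread between these libraries.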

Additional observations from a re-analysis of the deposited data

Results flagged for a closer look

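Bckdha in WT replicate 2 lay far from the other WT libraries, at 1293 CPM against 872 to 968 CPM, a gap of 0.772 of the range of the group where 0.71 is the limit for 5 libraries (Dixon's rule). It was the 1 value flagged among 38 groups of values tested, and chance flags about 1 in 20. The same library had the lowest TMM factor, 0.90, and the steepest slope over transcript length.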

How the results depend on the processing

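Under each of 30 alternatives 0 members and 0 other pathway genes were called, as were 0 members on each score under every alternative run for it, and the median of the members stayed between -0.11 and -0.03. The count over all genes moved from 17 to 67 with DESeq2, 8 with the fibroblast and 11 with the brown adipocyte covariate, and 4 and 10 within the lower and upper ranges of library numbers (fewer libraries). The deviations of same-numbered libraries had r of 0.39, 0.42, 0.19, 0.18 and -0.61. Differently numbered libraries were not compared, so whether replicate numbers pair libraries was not tested. The replicate block gave 7 genes, 0 members, and a median of -0.03.

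Signs turned as follows, and the cause was not tested. The log2 fold change of Bckdha was 0.04 with limma-voom, 0.04 with the replicate block, 0.02 with replicates 1 to 5 only and 0.05 with the brown adipocyte covariate. Bckdhb was 0.02 with the replicate block, 0.04 in the lower range and 0.03 with the brown adipocyte covariate. Ppm1k was 0.07 with the replicate block, 0.03 with replicates 1 to 5 only and 0.47 in the lower range. In the upper range Slc25a44 was 0.09 and Bcat2 -0.14. With the fibroblast covariate Axl was -0.21, Slc25a44 0.08, Bcat2 -0.03, Dbt 0.01, Mccc1 0.03, Bcat1 -0.34 and Slc3a2 -0.12. Slc3a2 was -0.10 with limma-voom. Without WT replicate 2 and with the GC and length trend removed, Mccc1 was 0.02 and Slc3a2 -0.04. Leaving out 1 library gave -0.07 to 0.01 for Slc25a44, -0.02 to 0.15 for Bcat2, -0.11 to 0.04 for Bckdha, -0.14 to 0.14 for Ppm1k, -0.05 to 0.20 for Slc3a2, and -0.37 to 0.05 for the Bckdk to Ppm1k log2 ratio. With the longest transcript 5 of 10 ranks held. Bckdk, Ivd and Hibch kept their sign or reached 0 throughout.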

Other observations

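Among the other pathway genes Slc7a8 had the largest SD of log2 CPM within groups, 0.91. It encodes the light chain LAT2 of a neutral amino acid carrier and is named here after its values were seen. It had 27.5, 11.6, 46.2, 34.8 and 9.11 CPM in the WT libraries and from 9.51 to 50.3 CPM, with a median of 32.4 CPM, in the iFAXLKO libraries, so the highest library held 5.53 times the lowest. The log2 fold change was 0.27 (SE 0.47, edgeR adjusted p 0.952). Its lowest libraries were WT replicates 2 and 5 and iFAXLKO replicate 6. These were 3 of the 4 libraries in the low set of Ppm1k, and in the fourth, iFAXLKO replicate 5, Slc7a8 stood at 39.6 CPM.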
